A study of Homo sapiens with 6 samples.

Results

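Transcripts of the genes that make, cut and bind hyaluronan were followed in a pair of stable lines made from MDA-MB-231, a triple-negative breast cancer cell line. The set holds 8 genes, which are the synthases HAS1, HAS2 and HAS3, the hyaluronidases HYAL1, HYAL2 and HYAL3, and the receptors CD44 and HMMR. Its members were all array probes annotated with one of these symbols, which gave 9 probes of the 24460 on the array and 8 genes of 19771. HYAL3 had 2 probes and each of the other 7 genes had 1. The line MB-231-maspin had been transduced with lentivirus carrying maspin joined to the fluorescent protein ZsGreen through a P2A peptide, under a CMV promoter, and MB-231-control with ZsGreen under the same promoter. Surviving clones were pooled after blasticidin selection, so each line is a single pool. Total RNA was labelled with Cy5 and hybridised to 1-colour 3D-Gene oligonucleotide arrays, with 3 arrays labelled for each line. Whether the replicates are independent cultures is not given by the labels, so the p-values measure the spread between these arrays, which may be technical.

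Hyaluronan is a long unsulfated polysaccharide of the extracellular matrix. Hyaluronan synthases sit in the plasma membrane, join glucuronic acid and N-acetylglucosamine from their UDP-sugars, and extrude the growing chain out of the cell. Hyaluronidases cut the chain into shorter fragments, and cells sense chains and fragments through receptors such as CD44. In breast cancer cells the pathway is known for its part in the pericellular coat, adhesion and invasion.

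Values below are normalized intensities, which the authors scaled so that the median of every array is 25, and a spot near the background of its array is blank. Of the 24460 probes, 87.1% to 91.3% were measured on an array. The background lay between 67.8 and 70.3 raw units, and the brightest of the 96 negative control spots of an array lay between 2.58 and 9.35 on the normalized scale, the latter on MB-231-control replicate 2. SERPINB5, which encodes maspin, showed no increase in the line labelled MB-231-maspin. Its probe gave 5.10, 5.61 and 4.11 on the control arrays and 4.20, 2.79 and 4.40 on the maspin arrays, under the study's minimum mean of 10 in either group. Where the probe lies relative to the transduced sequence is not given in the sources used here, and the direction of every comparison below rests on the labels. The mesenchymal marker VIM was bright in both lines (12505 and 12202 on its brightest probe). Of the luminal and HER2 markers, ESR1 was blank on all arrays, and PGR never exceeded the brightest negative control spot. GATA3 was measured on all arrays, with means of 22.3 in the control line and 27.4 in the maspin line. Its log2 fold change was 0.30 (adjusted p = 0.192 from limma). ERBB2 was also measured on all arrays, with means of 16.8 and 16.7. Of the 5 leukocyte probes, 1 was tested (CD14, log2 fold change 0.33, adjusted p = 0.292 from limma), and their summed intensity ranged from 25.3 to 31.7 on the control arrays and from 28.9 to 32.3 on the maspin arrays. The pan-leukocyte marker PTPRC had a mean of 1.65 over the 3 control arrays and was measured on 1 maspin array, at 1.05. The part of such cells in the results below was not tested.

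HAS2 was the member that differed between the lines. It encodes the synthase known for long chains and for the hyaluronan coat of mesenchymal and invasive cells, and lies on chromosome 8. The HAS2 probe (H200007401, Entrez Gene 3037) gave 15.7, 21.3 and 16.2 on the 3 MB-231-control arrays and 45.1, 42.9 and 43.8 on the 3 MB-231-maspin arrays. The groups did not overlap, and the lowest maspin array lay well above MB-231-control replicate 2, the highest of the control arrays. The means were 17.7 ± 3.07 and 43.9 ± 1.14 (SD, n = 3 each), and the coefficient of variation was 17.3% among the control arrays and 2.60% among the maspin arrays. Hence the control arrays scattered more than the maspin arrays around their mean. The log2 fold change was 1.32 (standard error 0.12, 95% interval 1.04 to 1.60), a 2.50-fold higher intensity (95% interval 2.06 to 3.03), with an adjusted p of 0.00234 from limma.

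**Figure D1:**
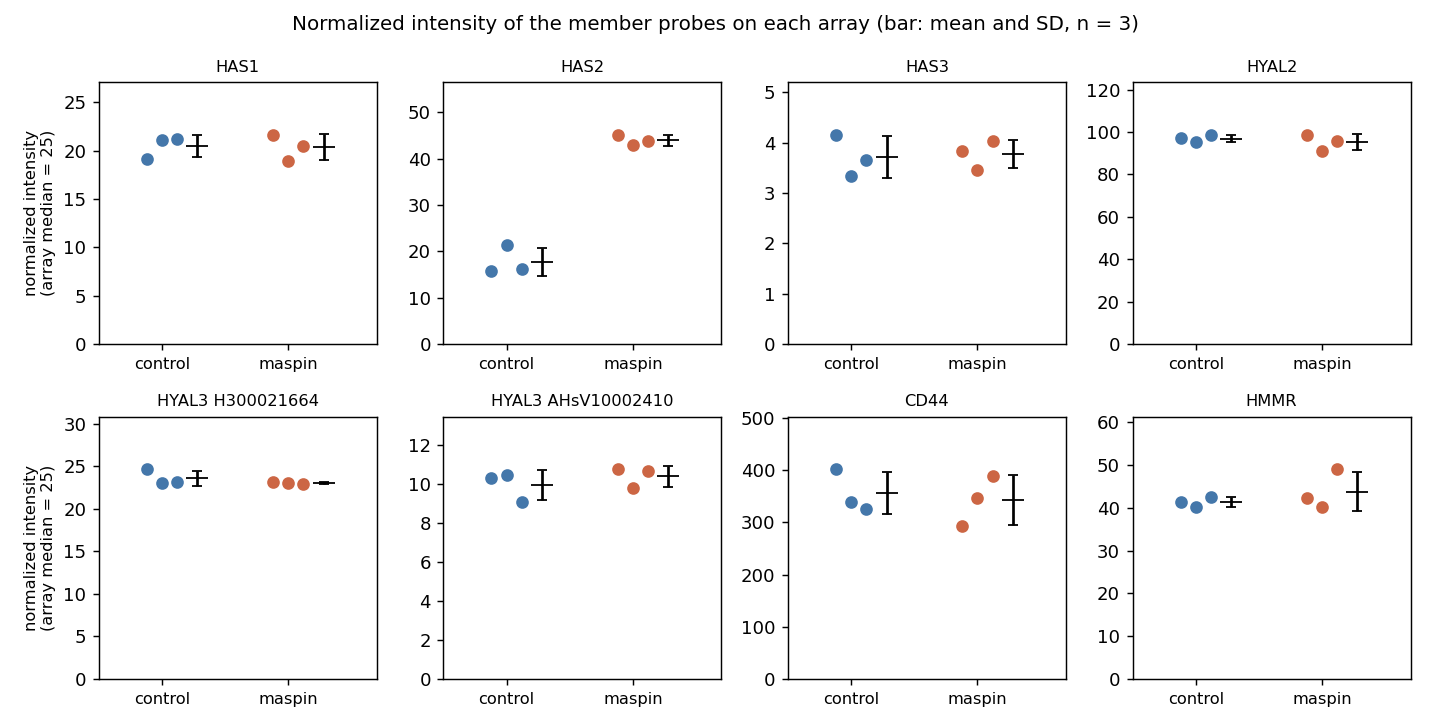
Normalized intensity (array median 25, linear axis from 0 in each panel) of the 8 member probes measured on all arrays, with 1 point an array and the mean ± SD of 3 arrays beside each group, controls in blue and maspin arrays in red. The HAS2 points lie at 15.7 to 21.3 in the control line and 42.9 to 45.1 in the maspin line, while the points of the other 7 probes overlap between the lines.

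Across the array 126 of 14903 tested probes passed the adjusted threshold of 0.05 (0.845%), 76 of them higher (0.51%) and 50 lower (0.336%) on the maspin arrays. HAS2 ranked 13 by log2 fold change and 25 by p among the 14903 probes, and 12 by log2 fold change among the 76 probes called higher. Groups that did not overlap were more common than calls: 20.5% of tested probes with 6 values had them, 13.7% in the higher direction and 6.85% in the lower. Of the member probes tested, 1 of 7 passed and 1 of 7 had groups that did not overlap, both being HAS2.

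The HAS2 signal was not far above the background. Its raw intensities were 99.8, 111 and 103 on the control arrays and 169, 176 and 146 on the maspin arrays. These readings were 1.44 to 1.62 times the background of the array in the control line and 2.15 to 2.51 times in the maspin line. All 6 normalized values exceeded the brightest negative control spot of their array. The size of the difference depended on the processing. With normexp background correction, an offset of 50 and quantile normalization the log2 fold change was 0.67 (1.60-fold), and with 10 added to the normalized intensities it was 0.96 (1.95-fold), both past the adjusted threshold. Without MB-231-control replicate 2 it was 1.46. In RNA of a whole culture, a larger share of cells expressing HAS2 and more HAS2 transcript per cell cannot be told apart. The result rests on a single probe, whose transcript accession was not in the RefSeq table used here. HAS2 also overlaps an antisense RNA, HAS2-AS1, which has no probe on the array. Whether the HAS2 probe also reads HAS2-AS1 was not tested.

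**Figure D2:**
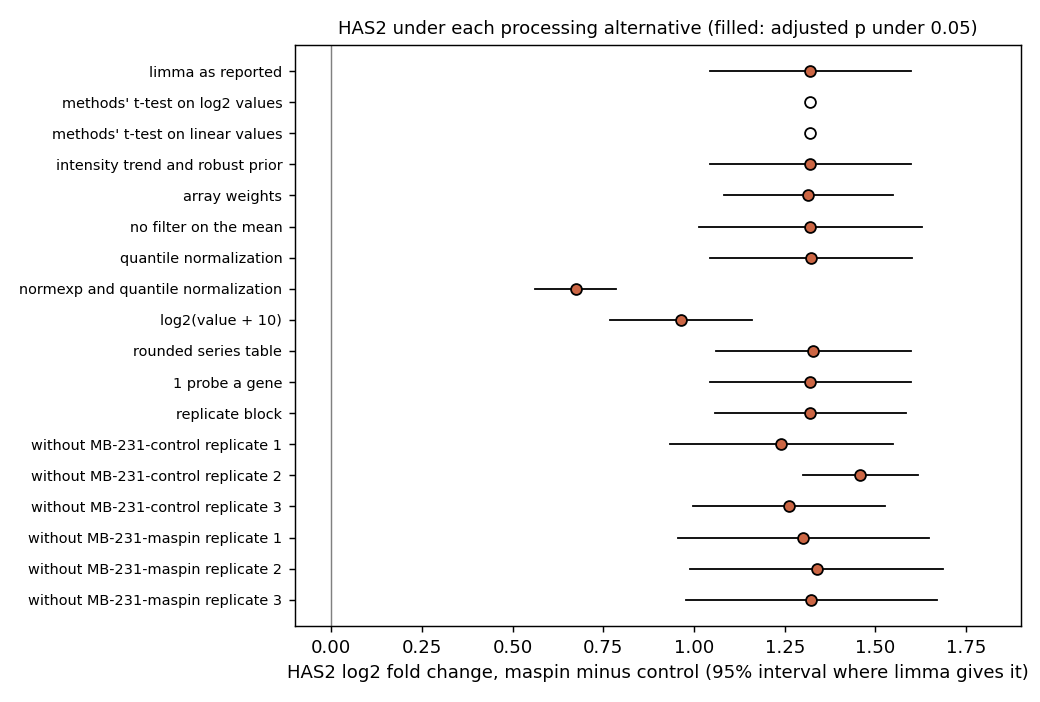
Log2 fold change of HAS2, maspin minus control, as reported and under each of 17 alternative settings, with the 95% interval where limma gives one and filled points where the adjusted p lay under 0.05. Every point lies above 0, between 0.67 with normexp, an offset of 50 and quantile normalization and 1.46 without MB-231-control replicate 2, and the methods' t-test on log2 or linear values gives the open points.

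Of the other synthases, HAS1 did not pass the threshold and HAS3 was too close to the background to be tested. HAS1, a synthase usually expressed at low levels (chromosome 19, probe CHsGV10000206), gave 19.2, 21.1 and 21.2 on the control arrays and 21.7, 19.0 and 20.5 on the maspin arrays. The values of the lines interleaved, and the means were 20.5 ± 1.14 and 20.4 ± 1.35. Its log2 fold change was -0.01 (95% interval -0.21 to 0.19, or 0.866-fold to 1.14-fold, adjusted p = 0.970 from limma). The HAS1 signal, like that of HAS2, was not far above the background, with raw readings 1.537 to 1.695 times it. The interval reflects the spread between these arrays, and does not bound a change in the HAS1 transcript.

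HAS3, the synthase known for shorter chains (chromosome 16, probe H300018701), was close to the background. Its values were 4.16, 3.34 and 3.65 on the control arrays and 3.83, 3.47 and 4.03 on the maspin arrays. These overlapped, and exceeded the brightest negative control spot on 5 of 6 arrays, with MB-231-control replicate 2 as the exception. Both means (3.72 ± 0.414 and 3.77 ± 0.283) lay under the minimum of 10, so HAS3 was not among the probes tested. In the limma fit with no such minimum its log2 fold change was 0.03 (95% interval -0.24 to 0.29, adjusted p = 0.961).

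**Figure D3:**
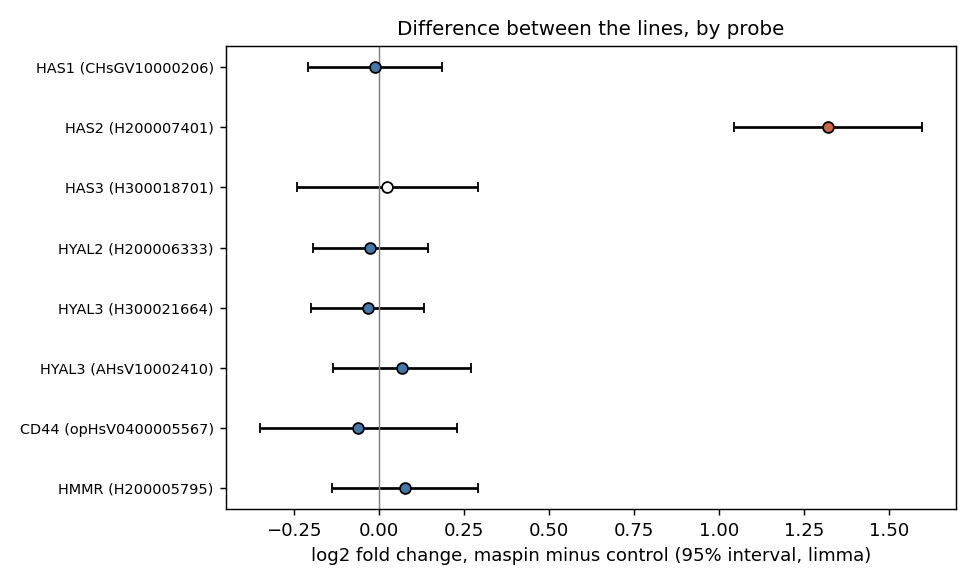
Log2 fold change, maspin minus control, with limma's 95% interval for the 8 member probes measured on all arrays; red marks an adjusted p under 0.05, blue a tested probe that did not pass and white HAS3, from the fit without a minimum mean. The HAS2 interval runs from 1.04 to 1.60, and the other 7 intervals include 0.

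None of the tested hyaluronidase probes among the members passed the threshold. HYAL2, a hyaluronidase anchored at the cell surface that cuts large chains into intermediate fragments, is on chromosome 3. Its probe (H200006333) gave 97.1, 95.1 and 98.4 on the control arrays and 98.7, 91.3 and 95.8 on the maspin arrays. The groups overlapped and varied little, with coefficients of variation of 1.71% and 3.94%. The log2 fold change was -0.02 (95% interval -0.19 to 0.14, adjusted p = 0.915 from limma).

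HYAL3, a related hyaluronidase of the same gene cluster whose own activity is less clear, had 2 probes annotated to 1 transcript. Probe H300021664 gave 24.6, 23.0 and 23.1 on the control arrays and 23.2, 23.0 and 22.9 on the maspin arrays. Probe AHsV10002410 gave 10.3, 10.5 and 9.08, and 10.8, 9.80 and 10.7. Groups overlapped on both probes, and the latter entered the test through its maspin mean of 10.4 ± 0.536, since its control mean was 9.95 ± 0.759. Their log2 fold changes were -0.03 (95% interval -0.20 to 0.13) and 0.07 (95% interval -0.14 to 0.27), with adjusted p of 0.882 and 0.784 from limma. The directions of the 2 probes therefore differed, within their intervals. Raw readings were 1.60 to 1.81 times the background for H300021664 and 1.26 to 1.35 times for AHsV10002410. As for HAS1, the intervals reflect the spread between these arrays and do not bound a change in the HYAL3 transcript.

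HYAL1, the lysosomal hyaluronidase that completes the cleavage, was at the background. Its probe (H200006153) was measured on MB-231-control replicate 1 at 1.60 and on MB-231-maspin replicate 1 at 0.996, and was blank on the other 4 arrays. Neither value exceeded the brightest negative control spot of its array, so no difference was detectable. HYAL3, NAA80, HYAL1 and HYAL2 are 4 neighbouring genes on chromosome 3, and HYAL3 overlaps NAA80, an actin acetyltransferase. The NAA80 probe had a log2 fold change of -0.07 (adjusted p = 0.721 from limma). Probe sequences were not used here, so whether a HYAL3 probe also reads NAA80 was not tested.

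The receptors did not pass the threshold either. CD44, the main cell-surface receptor for hyaluronan and a marker of mesenchymal-like breast cancer cells, had a probe (opHsV0400005567, chromosome 11) well above background on all arrays, at 10.4 to 13.2 times it. It gave 401, 340 and 326 on the control arrays and 293, 346 and 388 on the maspin arrays. Both the highest value and the lowest came from replicate 1, of the control and the maspin line respectively, and the means of 356 ± 40.3 and 342 ± 47.9 differed by less than either SD. The log2 fold change was -0.06 (95% interval -0.35 to 0.23, adjusted p = 0.875 from limma). CD44 is spliced into many isoforms, with 44 transcripts in the RefSeq table used here. A single probe cannot say how the isoforms were distributed.

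HMMR, also called RHAMM, binds hyaluronan outside the cell and the mitotic spindle inside it. Its probe (H200005795, chromosome 5) gave 41.3, 40.2 and 42.5 on the control arrays and 42.2, 40.2 and 48.9 on the maspin arrays. All but MB-231-maspin replicate 3 lay close together, and the groups overlapped. The log2 fold change was 0.08 (95% interval -0.14 to 0.29, adjusted p = 0.765 from limma).

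The 6 tested member probes other than HAS2 thus had log2 fold changes from -0.06 to 0.08, beside a median of 0.03 over all 14903 tested probes. By limma, and by the methods' t-test with log2 values, 0 of the 6 had an unadjusted p under 0.05, against 13.4% of all tested probes in limma.

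Genes that supply, degrade or bind hyaluronan were grouped into 6 lists that also hold the members, and partners of CD44 and HMMR into 2 more. The 23 other genes of the hyaluronan lists gave 28 tested probes, of which 0 passed the threshold in limma and 7 (25%) had an unadjusted p under 0.05, against 13.4% of all tested probes. Their median log2 fold change was 0.10 and 19 of 28 lay above 0, beside a median of 0.03 and 59.3% above 0 over all tested probes. Of the 22 tested probes of the 17 partner genes, 1 (4.55%), SRGN, passed and 4 (18.2%) had an unadjusted p under 0.05. The shares over all tested probes in limma were 0.845% and 13.4%. The median log2 fold change of the 22 was 0.10. The methods' t-test on log2 values called 0 of these 50 probes after adjustment and 10 before it, against 25 and 2041 of all 14903 tested probes.

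**Figure D4:**
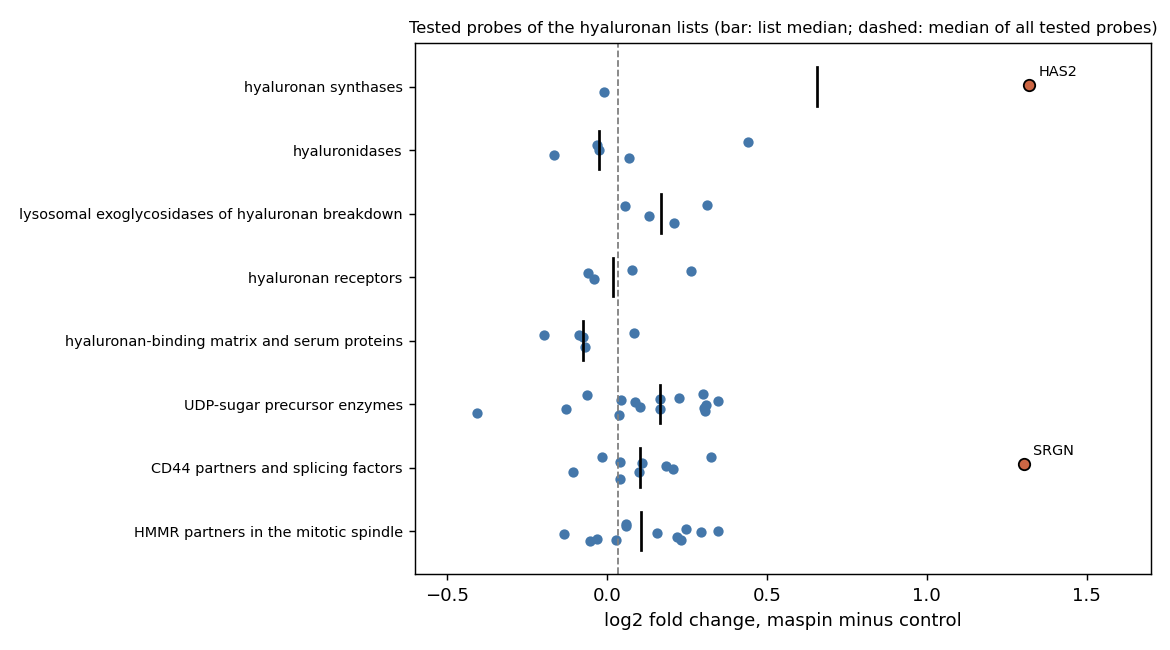
Log2 fold change, maspin minus control, of each tested probe in the 6 hyaluronan lists and the 2 lists of CD44 and HMMR partners, with a bar at the median of each list, a dashed line at the median of all tested probes (0.03) and red for an adjusted p under 0.05 in limma. HAS2 (1.32) and SRGN (1.30) stand apart from the other probes, which lie between -0.41 and 0.44.

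The list of UDP-sugar enzymes mostly holds those that make the sugars used by the synthases. It also counts UXS1, which converts UDP-glucuronic acid further (log2 fold change -0.06, adjusted p = 0.898 from limma). Of the list's 15 probes of 11 genes, 0 passed in limma and 4 (26.7%) had an unadjusted p under 0.05, against 0.845% and 13.4% of all tested probes. By the methods' t-test 5 had an unadjusted p under 0.05, and 0 passed after adjustment. The median log2 fold change was 0.16 and 12 of the 15 lay above 0, beside 0.03 and 59.3% over all tested probes. Groups did not overlap on 6 of the 15 (40%), against 20.5% of all tested probes with 6 values. GFPT2, an isoform of the rate-limiting enzyme of the hexosamine pathway, gave 195, 216 and 183 on the control arrays and 148, 154 and 145 on the maspin arrays. The groups did not overlap, but its log2 fold change of -0.41 (standard error 0.09) had an adjusted p of 0.102 in limma. GFPT1, the other isoform in the list, lay above 0 on its probes AHsV10001899 (0.16, adjusted p = 0.553 from limma) and H200000437 (0.10, adjusted p = 0.645). UAP1, which makes UDP-N-acetylglucosamine, gave 761, 872 and 827 against 1026, 1041 and 1057 on 1 probe, with a log2 fold change of 0.35 (adjusted p = 0.129 from limma). Its other probe gave 0.16 (adjusted p = 0.404). The values of GFPT2 and UAP1 thus lay on opposite sides of 0, and neither gene passed. GFPT2 passed in 4 of 18 alternatives and the UAP1 probe with the larger difference in 1.

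On the side of breakdown, TMEM2 (now CEMIP2), a membrane protein described as a cell-surface hyaluronidase, gave 16.3, 19.3 and 15.0 on the control arrays and 22.7, 23.9 and 21.9 on the maspin arrays. The groups did not overlap, and the log2 fold change was 0.44 (standard error 0.10, adjusted p = 0.133 from limma). It passed in 2 of 17 alternatives, with array weights (adjusted p = 0.0438) and without MB-231-control replicate 2 (adjusted p = 0.0446). CEMIP, which binds hyaluronan and is needed for its degradation by fibroblasts, had a log2 fold change of -0.17 (adjusted p = 0.483 from limma). It gave 17.57, 20.05 and 16.64 on the control arrays and 16.57, 16.45 and 15.22 on the maspin arrays. These groups did not overlap either, in the lower direction. Neither signal was far above the background, with raw readings 1.43 to 1.84 times it for TMEM2 and 1.40 to 1.58 times for CEMIP. Over all tested probes with 6 values, 20.5% had groups that did not overlap. In all, 0 of 5 tested hyaluronidase probes passed in limma, with 1 at an unadjusted p under 0.05 in limma and 1 in the methods' t-test. Over all tested probes, 0.845% passed and 13.4% had such an unadjusted p in limma.

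The lysosomal exoglycosidases, which trim the fragments to single sugars, also gave 0 of 4 probes past the threshold in limma, against 0.845% of all tested probes. At an unadjusted p under 0.05 lay 1 by limma, against 13.4% of all tested probes, and 1 by the methods' t-test. This was the GUSB probe AHsV10000661, for β-glucuronidase, with a log2 fold change of 0.31 (adjusted p = 0.157), while the other GUSB probe gave 0.21 (adjusted p = 0.484).

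Of the other receptors, LAYN (layilin) gave 196, 234 and 198 on the control arrays and 252, 256 and 244 on the maspin arrays, which did not overlap. Its log2 fold change was 0.26 (adjusted p = 0.264 from limma), and it passed in 0 of 18 alternatives. STAB2, a scavenger receptor of liver and lymphatic endothelium, had -0.04. The lymphatic receptor LYVE1 was blank on all 6 arrays. In the list of hyaluronan-binding matrix and serum proteins, 5 of 21 probes were bright enough to test and 0 passed in limma, against 0.845% of all tested probes. At an unadjusted p under 0.05 lay 0 by limma, against 13.4% of all tested probes, and 0 by the methods' t-test. BCAN (brevican) had a log2 fold change of -0.20 (adjusted p = 0.432) and the link protein HAPLN3 -0.09.

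SRGN encodes serglycin, a small proteoglycan whose glycosaminoglycan chains bind CD44. SRGN was the only probe of the 10 tested in the list of CD44 partners to pass, against 0.845% of all tested probes. It gave 688, 503 and 389 on the control arrays and 1075, 1303 and 1442 on the maspin arrays. The groups did not overlap, and the log2 fold change was 1.30 (standard error 0.20, adjusted p = 0.0318 from limma). It passed in 11 of 18 alternatives. The adjusted p was 0.0643 without MB-231-control replicate 2, 0.0899, 0.191 and 0.176 without MB-231-maspin replicate 1, 2 and 3, 0.108 with no filter on the mean, and 0.207 and 0.180 by the methods' t-test, for log2 and linear values respectively. ADAM17, a protease that can shed CD44, had log2 fold changes of 0.33 (adjusted p = 0.193) and 0.04 on its 2 probes, and the former passed without MB-231-control replicate 2 (0.42, adjusted p = 0.0476 from limma). Among the spindle partners of HMMR, 0 of 12 probes passed in limma, with 2 at an unadjusted p under 0.05 (0 by the methods' t-test). Over all tested probes, 0.845% passed and 13.4% had such an unadjusted p in limma. FAM83D, which binds HMMR at the spindle, had a log2 fold change of 0.35 (adjusted p = 0.274 from limma). TUBG1, γ-tubulin, had 0.23 (adjusted p = 0.353) on 1 probe and 0.16 (adjusted p = 0.661) on the other.

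Genes whose log2 values followed a member most closely over the 6 arrays were listed as a description, since all arrays and both groups enter each correlation. These genes were taken only from tested probes whose SD reached a set fraction of that of the member probe. Probes that varied less were left out. For HAS2 they were HLA-DRB5, an MHC class II chain (r = 0.997, log2 fold change 0.80), SOCS2, a suppressor of cytokine signalling (r = 0.996, log2 fold change 0.72), and RGS7, a regulator of G-protein signalling (r = 0.995, log2 fold change 1.13). All 3 also passed the threshold, with adjusted p of 0.00701, 0.0112 and 0.0025 in limma. Since they were chosen for likeness to HAS2 over the same arrays, their passing is not a separate result. For CD44 they were TREX1 (r = 0.999), HIRA (r = 0.985) and METTL7A (r = 0.984), and for HMMR SYNDIG1L (r = 0.996), ZBTB11-AS1 (r = 0.988) and TANGO2 (r = 0.982). None of these 6 genes passed.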

How the data were processed

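Total RNA of both lines was measured on 6 arrays of 1 colour. The deposited scanner files give raw intensity, intensity after the authors subtracted the array background, and a normalized intensity, for which the authors set each array's median to 25. A deposited table holds the same values rounded to whole numbers, used as a score. Entrez identifiers were used to restore 33 symbols that a spreadsheet had made into dates.

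Log2 normalized intensities of 14903 probes, each a feature, kept where the mean of a line exceeded 10 and at least 2 arrays per line gave a value, were fitted with limma 3.58.1 in R 4.3.3, as maspin minus control; tests were two-sided and Benjamini-Hochberg adjusted over all these probes, with a threshold of 0.05. The code was tested on simulated data. The number of arrays limits the precision. Tables and figures used Python 3.11.15, pandas 2.3.3 and matplotlib 3.10.9.

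Named genes were all member probes, of each list up to 4 genes past the threshold or otherwise the 2 of smallest p, for HAS2, CD44 and HMMR the 3 genes of highest Pearson r, and SERPINB5; the result of 1 gene that this rule names is not reported here. ADAM17, STAB2, CD14, PTPRC, VIM, ESR1, PGR, GATA3, ERBB2, LYVE1 and NAA80 were added after their values were seen. The members and lists were chosen with earlier results of these data known. Names and chromosomes came from a RefSeq table, where all 8 member genes matched by Entrez identifier and 7 of 9 probes by transcript. The HAS2 and CD44 probes did not match by transcript. The files name no genome build, so no coordinates are given. Alternatives were the methods' t-test, other spread models, filters, normalizations and pseudocounts, the rounded table, 1 probe a gene, a replicate block and each array left out.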

Additional observations from a re-analysis of the deposited data

How the results depend on the processing

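HAS2 kept its direction in all 17 alternatives that tested it and its side of the threshold in 15. Alternatives such as the methods' t-test, no filter on the mean, 1 probe a gene and the replicate block keep the same log2 fold change by construction. Its direction could not turn in those. In the methods' t-test its log2 fold change of 1.32 had adjusted p of 0.105 on log2 and 0.0610 on linear values, and with a mean above 50 required it was not tested, so that 0 member probes were called in those 3 settings. It was 0.67 with normexp (offset 50) and quantile normalization together, 0.96 with log2(value + 10), and 1.24 to 1.46 with an array left out (adjusted p 9.22e-05 to 0.0301). No other member passed in any alternative. Near 0, signs turned: HAS1 gave 0.000291 with quantile normalization and -0.0573 to 0.0401 with an array left out, HYAL3 (AHsV10002410) -0.00838 with array weights, HYAL2 -0.0502 to 0.00639, CD44 -0.155 to 0.0486 and HMMR -0.00651 to 0.136 with an array left out. The 126 probes called on the array became 25 and 24 in the methods' t-test on log2 and linear values, 264 with array weights, 48 with no filter on the mean, 49 with a mean above 50, 287 with normexp and quantile normalization together (157 with quantile normalization alone), and 37 to 208 with an array left out. The cause was not tested. The share called higher was 60.3%, against 72% and 75% in the t-tests, 82.2% without MB-231-control replicate 2 and 46.4% without MB-231-control replicate 3. In deviations from the group means, same-numbered arrays correlated at -0.34, 0.49 and 0.22, and differently numbered arrays at -0.49 to 0.29. With 3 arrays a group these values depend on each other and cannot settle whether the numbers pair the arrays. With the replicate block 139 probes were called and HAS2 had 1.32 (adjusted p = 0.00122 from limma). HAS3 and HYAL1 are limited by signal near the background, and HAS1, HAS2 and HYAL3 by signal not far above it.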
